A study of Homo sapiens with 6 samples.

Results

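The genes described here encode 9 enzymes of the pentose phosphate pathway or of NADPH production: PGLS, PGD, RPIA, RPE, TKT, TALDO1, ME1, ME2 and IDH1. They were chosen by name, and all 9 were found by symbol among the 30741 genes of the expression table. The table comes from MOLM-13, a human acute myeloid leukaemia line whose genotype is labelled WT, kept in RPMI-1640 with fetal bovine serum. Cells labelled TSN received 20 nM of this agent, taken here as the toosendanin of the series title, and the control cells received DMSO alone. RNA was taken after 48 h from 3 libraries per group, which the labels call biological replicates of a single line. The treatment field reads DMSO for all 6 samples, so groups follow the titles. The control columns of the table carry no DMSO in their names and were assigned as the only other group, which limits every comparison.

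The pentose phosphate pathway branches off glycolysis at glucose 6-phosphate. Its oxidative branch reduces NADP to NADPH and ends in ribulose 5-phosphate, and its reversible non-oxidative branch converts pentose phosphates into ribose 5-phosphate for nucleotides or back into glycolytic intermediates. Cytosolic malic enzyme and cytosolic isocitrate dehydrogenase supply NADPH outside this pathway. NADPH is the reductant for fatty acid and sterol synthesis and for glutathione and thioredoxin, and in phagocytes it also feeds the oxidase that makes superoxide.

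Levels are in FPKM, in which fragment numbers are divided by exon length and by the size of the library, so they cannot show a shift in the RNA content of the cells as a whole. In bulk RNA, fewer cells of a type and less RNA per cell cannot be told apart. Depth, estimated from the steps between low values of single-exon genes, was 37154656 to 50413159 fragments per library, so 1 fragment on 1 kb of exon was worth 0.0198 to 0.0269 FPKM. For the 9 genes this gave between 123 fragments per kb (ME2 in TSN 3) and 14160 fragments per kb (TALDO1 in TSN 3). All 8 myeloid markers checked reached 1 FPKM, with summed levels of 3586 to 3859 FPKM in DMSO and 2197 to 2279 FPKM in TSN, most of it MPO (3413 to 3668 and 1989 to 2041 FPKM). The other 7 summed to 173 to 191 FPKM in DMSO and 208 to 249 FPKM in TSN, opposite in direction to the whole list. These 7 did not move together. Much of their sum was SPI1, at 64.4 to 85.7 FPKM in DMSO and 94.5 to 182 FPKM in TSN. CSF1R was also higher in every TSN library, and CEBPA was lower (27.2 to 37.5 FPKM in DMSO, 16.1 to 25.8 in TSN). CD33, LYZ, PTPRC and FLT3 overlapped between groups. Erythroid markers (3 of 4 examined, 0 at 1 FPKM) summed to 0.16 to 0.837 FPKM. Lymphoid markers (3 of 4 examined) summed to 5.85 to 7.06 FPKM in DMSO and 5.81 to 12.8 in TSN, with CD3E at 0.0976 to 0.194 FPKM. Epithelial and fibroblast markers (3 of 4 examined) summed to 5.71 to 7.04 FPKM in DMSO and 4.91 to 6.22 in TSN, most of it EPCAM and KRT8, with COL1A1 at 0 to 0.0582 FPKM.

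The library TSN 3 stood apart. Its median log2(FPKM + 1) over the tested genes was 2.97, whereas the remaining libraries had 3.30 to 3.46. Its median difference from TSN 1 and TSN 2 on that scale was -0.56 in the tertile of genes with the longest total exon length. In the tertile with the shortest it was 0.14. By GC content of the transcript, the differences were -0.55 in the lowest tertile and 0.16 in the highest. DMSO 3 departed from DMSO 1 and DMSO 2 the other way, by 0.25 in the longest tertile and -0.16 in the shortest. Values without these libraries are given where they alter a result.

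Of the 9 genes, PGD and ME1 rose after TSN and 0 fell at an adjusted p under 0.05 (limma on log2(FPKM + 1), adjusted over 11440 genes). All 9 passed the filter of at least 1 FPKM in 3 libraries. Over all genes tested, 7.71% were called higher and 7.2% lower, 14.9% in either direction, and 2 of 9 lies near that background. At an unadjusted p under 0.05, 3 of the 9 were higher (PGD, ME1 and IDH1) and 1 was lower (RPIA). Over all genes tested, 3524 of 11440 lay under this limma p in either direction, so the member counts lie near that background too. The values of the groups did not overlap in the same 4 genes, 3 higher and 1 lower. Over all genes tested, 16.2% were separated with TSN higher and 22.9% with TSN lower, 39.2% in either direction. The median log2 fold change of the 9 was -0.04, beside -0.10 for all genes tested.

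**Figure D1:**
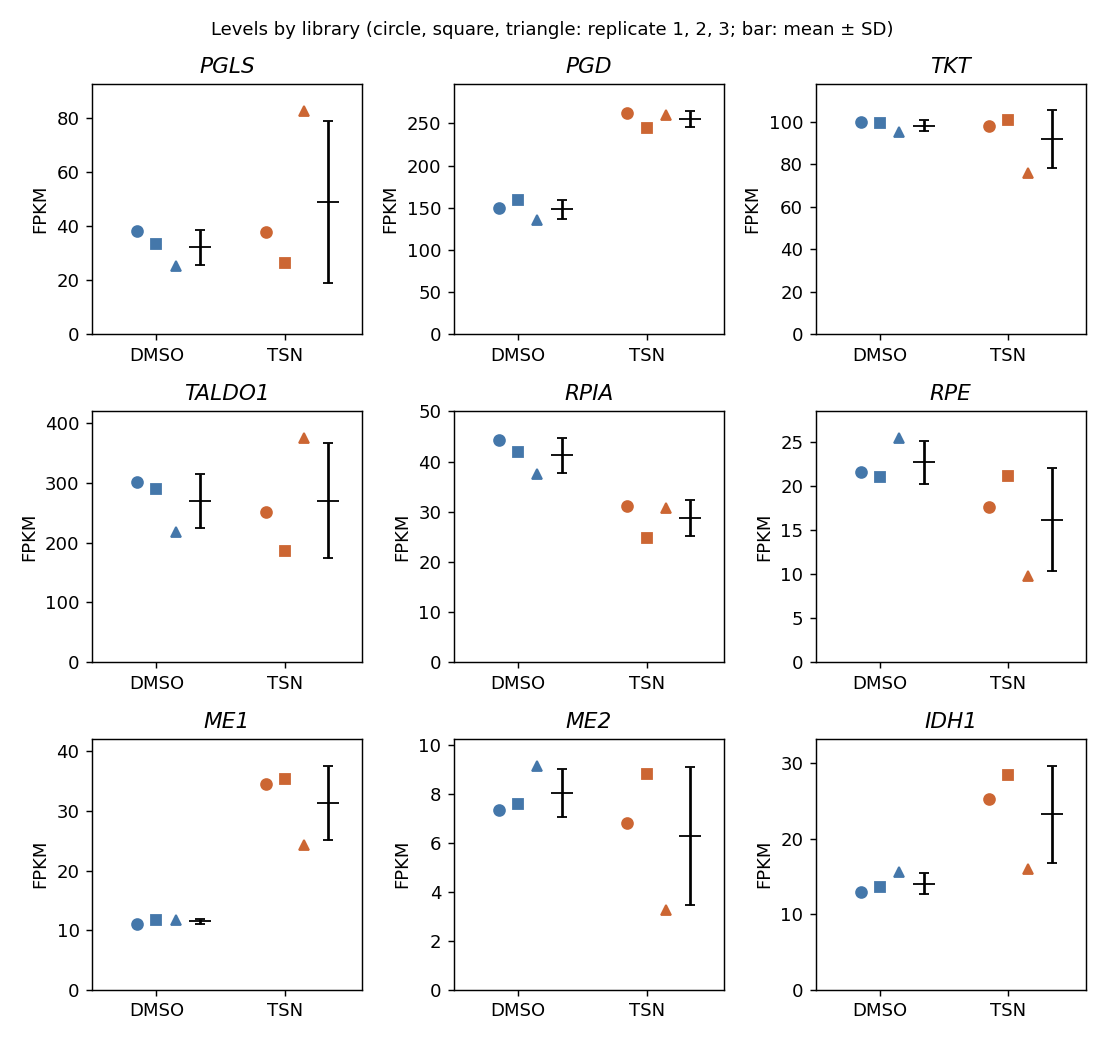
Level of each of the 9 genes in FPKM (vertical axes, from 0) in 3 DMSO libraries (blue) and 3 TSN libraries (orange), where symbols mark the replicate number and bars the mean ± SD. PGD and ME1 are separated between groups by wide gaps, RPIA is lower in all 3 TSN libraries, and the triangle of TSN 3 lies far from the other TSN values for PGLS, TALDO1, RPE and ME2.

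The levels spanned a wide range. In DMSO the order by mean FPKM was TALDO1, PGD, TKT, RPIA, PGLS, RPE, IDH1, ME1 and ME2, from 269.4 ± 45.5 to 8.033 ± 0.983 FPKM (SD, n = 3). In that order the values of RPIA and PGLS overlapped, as did those of PGLS and RPE, while the other neighbours were separated. In TSN the order was TALDO1, PGD, TKT, PGLS, ME1, RPIA, IDH1, RPE and ME2. There only PGD and TKT, and RPE and ME2, were separated among neighbours. ME1 stood below IDH1 in every DMSO library and above it in every TSN library. Summed per library, PGLS and PGD reached 162 to 192 FPKM in DMSO and 271 to 343 FPKM in TSN. ME1, ME2 and IDH1 summed to 31.2 to 36.4 FPKM in DMSO and 43.5 to 72.6 FPKM in TSN, and those sums did not overlap either. PGD made up most of the first sum. In the second, ME1 and IDH1 had higher means in TSN, and ME2 a lower one (8.033 FPKM in DMSO, 6.283 FPKM in TSN). The 4 genes of the non-oxidative branch summed to 375 to 467 FPKM in DMSO and 332 to 491 FPKM in TSN, which overlapped.

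In the oxidative branch, PGD rose while PGLS gave no call. PGD encodes 6-phosphogluconate dehydrogenase, which decarboxylates 6-phosphogluconate to ribulose 5-phosphate and yields NADPH (ENSG00000142657, GRCh38 chromosome 1, 10398592 to 10420144, plus strand). It stood at 149.9, 159 and 136 FPKM in DMSO 1, 2 and 3, and at 262, 245 and 260.0 FPKM in TSN 1, 2 and 3. Every TSN value lay above every DMSO value, and TSN 3 was close to the other TSN libraries. The group means were 148.4 ± 11.5 and 255.7 ± 9.63 FPKM (SD, n = 3), a ratio of 1.72. The log2 fold change was 0.78 ± 0.13 SE (95% interval 0.46 to 1.10, limma adjusted p = 0.0139). The size changed little with 1 library left out, from 0.72 to 0.83, but the limma adjusted p passed 0.05 without DMSO 1 (0.0873), DMSO 2 (0.0773), DMSO 3 (0.0741) or TSN 1 (0.0846). PGD shares 15.6% of the 31-base words of its longest coding transcript with the pseudogene PGDP1, which was listed at no more than 0.0919 FPKM in any library.

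PGLS encodes 6-phosphogluconolactonase, the hydrolase one step before PGD (ENSG00000130313, chromosome 19, 17511629 to 17521288, plus strand). Its levels were 38.0, 33.4 and 25.3 FPKM in DMSO 1, 2 and 3, and 37.8, 26.2 and 82.7 FPKM in TSN 1, 2 and 3. TSN 1 and TSN 2 lay within the DMSO range, and TSN 3 far above it. A log2 fold change of 0.44 ± 0.41 SE (95% interval -0.55 to 1.44, limma adjusted p = 0.51) became -0.01 without TSN 3. PGLS shares 9.17% of its exon bases with AC010618.3 on the opposite strand.

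The promoters of PGD and ME1, the genes that were called, are shown with RPE because these 3 of the 9 held the core letters of an antioxidant response element, TGACNNNGC on either strand, in the 250 bases before the RefSeq start. This element is the site known for the factor NRF2, and its letters can overlap an AP-1 site. Of 27305 RefSeq promoters of the same length, 11.0% held the same letters. The E-box CACGTG was found in 0 of the 9 windows and in 6.49% of all windows. The sterol regulatory element letters TCACNCCAC were found in 0 of 9 and in 0.875% of all windows. A match is a description of the letters only, and no factor was measured. The stretches are from RefSeq on GRCh38.p14, written 5′ to 3′ on the strand of the gene, leave out bases in any GENCODE 29 exon, and carry the matched letters in capitals.
PGD, chr1:10398814-10399043, plus strand: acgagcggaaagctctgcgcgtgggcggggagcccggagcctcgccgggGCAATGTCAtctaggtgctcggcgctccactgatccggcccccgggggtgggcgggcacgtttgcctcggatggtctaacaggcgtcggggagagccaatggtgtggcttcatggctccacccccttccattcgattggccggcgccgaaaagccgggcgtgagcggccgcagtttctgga
ME1, chr6:83431072-83431301, minus strand: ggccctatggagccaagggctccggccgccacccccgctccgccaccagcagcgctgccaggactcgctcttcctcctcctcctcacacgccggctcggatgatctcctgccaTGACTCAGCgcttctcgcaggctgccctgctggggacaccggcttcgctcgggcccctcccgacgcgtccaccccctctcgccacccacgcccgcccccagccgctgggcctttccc
RPE, chr2:210002388-210002564, plus strand: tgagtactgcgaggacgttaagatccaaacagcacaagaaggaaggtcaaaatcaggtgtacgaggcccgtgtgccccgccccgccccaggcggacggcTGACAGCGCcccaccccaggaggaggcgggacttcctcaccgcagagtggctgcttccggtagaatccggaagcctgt
The match begins 201 bases upstream of the start in PGD, where it reads on the opposite strand, 137 bases upstream in ME1 and 151 bases upstream in RPE.

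Among the malic enzymes and isocitrate dehydrogenase, which lie outside the pathway, ME1 rose, IDH1 was higher without passing the test, and ME2 gave no call. ME1 encodes cytosolic malic enzyme, which turns malate into pyruvate with NADPH as the other product (ENSG00000065833, chromosome 6, 83210389 to 83431071, minus strand). Its levels were 11.0, 11.8 and 11.7 FPKM in DMSO 1, 2 and 3, and 34.5, 35.4 and 24.2 FPKM in TSN 1, 2 and 3. The lowest TSN value, that of TSN 3, was still far above the DMSO values, which lay close together. The means were 11.48 ± 0.442 and 31.39 ± 6.21 FPKM (SD, n = 3), a ratio of 2.74. The log2 fold change of 1.36 ± 0.18 SE (95% interval 0.93 to 1.78, limma adjusted p = 0.00638) was the highest of the 9. Leaving out 1 library gave 1.26 to 1.53, and the limma adjusted p passed 0.05 only without DMSO 2 (0.0512). No 31-base word of ME1 was found in the transcripts of another gene.

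ME2 encodes a mitochondrial malic enzyme that works mainly with NAD (ENSG00000082212, chromosome 18, 50878734 to 50954257, plus strand). It stood at 7.35, 7.59 and 9.16 FPKM in DMSO 1, 2 and 3, and at 6.80, 8.80 and 3.25 FPKM in TSN 1, 2 and 3. TSN 1 and TSN 2 lay close to the DMSO values and TSN 3 was the low one. A log2 fold change of -0.39 ± 0.32 SE had a 95% interval of -1.15 to 0.37 (limma adjusted p = 0.451), and without TSN 3 it was -0.04. The ratio of ME1 to ME2 in FPKM was 1.49, 1.55 and 1.28 in DMSO 1, 2 and 3, and 5.08, 4.02 and 7.46 in TSN 1, 2 and 3. It was thus higher in 3 of 3 TSN libraries, by 1.75 on the log2(FPKM + 1) scale, with a two-sided exact permutation p of 0.1, the smallest that 3 against 3 libraries allow, and 0.4 after adjustment over the 4 pairs compared.

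IDH1 encodes the NADP-dependent isocitrate dehydrogenase of cytosol and peroxisomes, an enzyme known for recurrent mutations in acute myeloid leukaemia (ENSG00000138413, chromosome 2, 208236227 to 208266074, minus strand). Levels were 12.9, 13.6 and 15.6 FPKM in DMSO 1, 2 and 3, and 25.2, 28.4 and 16.0 FPKM in TSN 1, 2 and 3. The groups did not overlap, but TSN 3 lay just above DMSO 3. The means were 14.03 ± 1.39 and 23.23 ± 6.44 FPKM (SD, n = 3). The log2 fold change was 0.66 ± 0.23 SE (95% interval 0.11 to 1.20) with a limma adjusted p of 0.108. Without TSN 3 it was 0.89 with a limma adjusted p of 0.00711, and after removal of trends in exon length and GC content from each library, an alternative added once the data had been seen, it was 0.75 with a limma adjusted p of 0.0157. Scaling by median log ratios (0.75, adjusted p = 0.0268) and quantile normalization (0.79, adjusted p = 0.0291) also brought it past the limma threshold. So did leaving out both DMSO 3 and TSN 3 (0.96, limma adjusted p = 0.00467). The remaining settings did not. The limma adjusted p of IDH1 was 0.149 to 0.297 with any 1 library other than TSN 3 left out. It was 0.237 without a filter and 0.309 with the replicate number as a block.

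**Figure D2:**
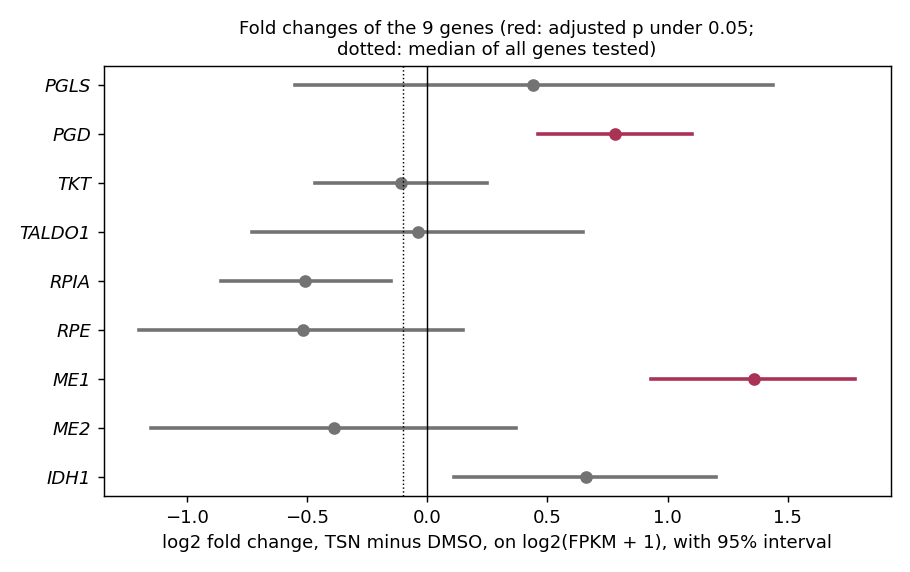
Log2 fold change of TSN minus DMSO on log2(FPKM + 1) for the 9 genes (horizontal axis), with 95% intervals of the limma fit in 3 libraries per group. PGD (0.78) and ME1 (1.36), in red, passed the threshold, and the intervals of RPIA and IDH1 leave out 0 although their adjusted p did not pass.

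Both enzymes that act on ribulose 5-phosphate had lower means after TSN, and neither was called. RPIA encodes the isomerase that makes ribose 5-phosphate, the sugar of nucleotides (ENSG00000153574, chromosome 2, 88691644 to 88750935, plus strand). Its levels were 44.3, 41.9 and 37.5 FPKM in DMSO 1, 2 and 3, and 31.1, 24.7 and 30.7 FPKM in TSN 1, 2 and 3. All 3 TSN values lay below the DMSO range. The means were 41.24 ± 3.45 and 28.83 ± 3.59 FPKM (SD, n = 3), with a log2 fold change of -0.51 ± 0.15 SE (95% interval -0.86 to -0.15, limma adjusted p = 0.0655). The limma adjusted p was 0.0375 without TSN 3 (-0.55), 0.0248 without both DMSO 3 and TSN 3 (-0.62) and 0.00874 with the length and GC trend removed (-0.56). Elsewhere the support for RPIA was weaker. Its limma adjusted p was 0.187 with median log ratio scaling (-0.41) and 0.278 with the replicate number as a block. Leaving out any 1 library other than TSN 3 gave 0.0973 to 0.242. RPE encodes the epimerase that makes xylulose 5-phosphate from the same substrate (ENSG00000197713, chromosome 2, 210002565 to 210022259, plus strand). It stood at 21.6, 20.9 and 25.4 FPKM in DMSO 1, 2 and 3, and at 17.6, 21.1 and 9.71 FPKM in TSN 1, 2 and 3. The groups overlapped at TSN 2, and TSN 3 was the lowest value. The log2 fold change of -0.52 ± 0.28 SE (95% interval -1.20 to 0.15, limma adjusted p = 0.26) was -0.22 without TSN 3.

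RPE is the least certain of the 9 in its counting. It shares 23.8% of its exon bases with KANSL1L on the opposite strand, and no source used here states whether counting used strand. KANSL1L had a log2 fold change of -0.17 (limma adjusted p = 0.772). RPE also shares 20.4% of its 31-base words with RPEL1, a near-identical copy listed at no more than 0.106 FPKM. The ratio of RPIA to RPE was 2.05, 2.00 and 1.48 in DMSO 1, 2 and 3, and 1.77, 1.17 and 3.16 in TSN 1, 2 and 3, which overlapped (difference of 0.02 on the log2 scale, two-sided exact permutation p = 1.0).

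The 2 carbon-transfer enzymes showed no call. TKT encodes transketolase, which moves ketol units between sugar phosphates with thiamine diphosphate as cofactor (ENSG00000163931, chromosome 3, 53224707 to 53256052, minus strand). Its levels were 99.8, 99.4 and 95.2 FPKM in DMSO 1, 2 and 3, and 98.0, 101 and 76.0 FPKM in TSN 1, 2 and 3. TSN 1 and TSN 2 lay at the DMSO level and TSN 3 below it. A log2 fold change of -0.11 ± 0.15 SE had a 95% interval of -0.47 to 0.25 (limma adjusted p = 0.668). TALDO1 encodes transaldolase, which moves dihydroxyacetone units (ENSG00000177156, chromosome 11, 747329 to 765024, plus strand). It stood at 301, 289.9 and 217 FPKM in DMSO 1, 2 and 3, and at 251, 185 and 375 FPKM in TSN 1, 2 and 3. The DMSO range lay inside the TSN range, and the means of 269.4 ± 45.5 and 270.3 ± 96.3 FPKM (SD, n = 3) were nearly equal. The interval of its log2 fold change, -0.73 to 0.65 around -0.04 (limma adjusted p = 0.939), leaves room for a change as large as that of RPIA in either direction. For TKT over TALDO1 the ratio was 0.331 to 0.438 in DMSO and 0.203 to 0.545 in TSN (two-sided exact permutation p = 0.9), and for PGLS over PGD it was 0.186 to 0.254 and 0.107 to 0.318 (p = 0.5, exact permutation).

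**Figure D3:**
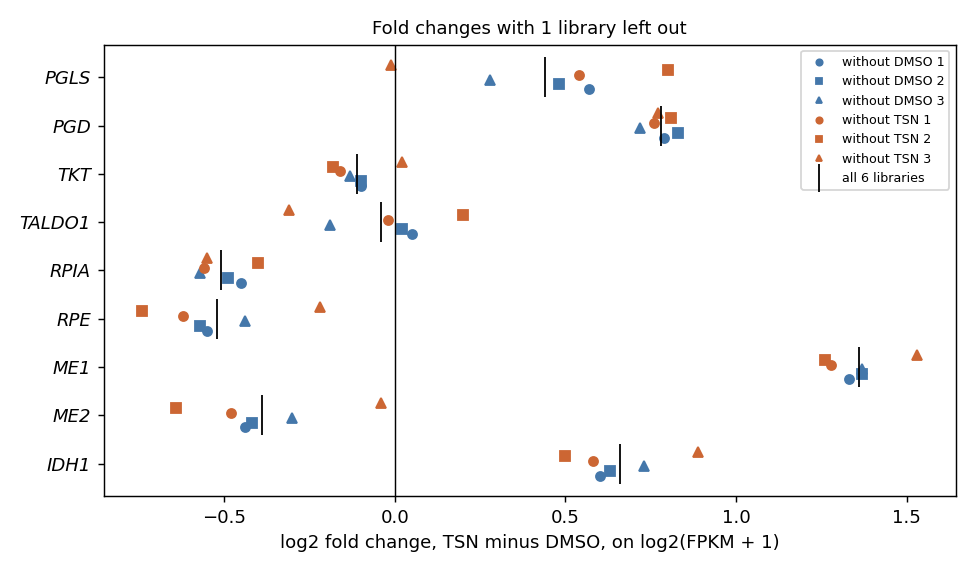
Log2 fold change on log2(FPKM + 1) for the 9 genes (horizontal axis) with all 6 libraries (black line) and with 1 library left out (symbols, blue for a DMSO and orange for a TSN library). PGD and ME1 keep their size in every fit, while PGLS, TALDO1, RPE and ME2 move most when TSN 2 or TSN 3 is left out.

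The spread within the TSN group followed the same genes in opposite directions. TSN 3 was above the mean of TSN 1 and TSN 2 by 1.36 for PGLS and 0.80 for TALDO1 on the log2(FPKM + 1) scale. In the same library the difference was -1.04 for ME2, -0.92 for RPE, -0.71 for IDH1, -0.51 for ME1 and -0.38 for TKT. PGD (0.04) and RPIA (0.14) were close to the other TSN libraries. The 4 genes with the lowest GC content of the longest transcript, RPE (36.6%), ME1 (39.5%), ME2 (40.6%) and IDH1 (43.1%), were all lower in TSN 3. PGLS (61.6%) and TALDO1 (56.5%) were higher there, and TKT (56.0%), whose longest transcript is 7286 bases against 1601 and 1346 for those 2, was lower. DMSO 3 differed from DMSO 1 and DMSO 2 with the opposite sign in 8 of these 9 genes, for example by -0.48 for PGLS and 0.26 for ME2, with TKT (-0.06) the exception. With the length and GC trend removed, PGD (0.70, limma adjusted p = 0.00401) and ME1 (1.44, limma adjusted p = 0.0012) stayed past the threshold, and PGLS, TKT, TALDO1, RPE and ME2 stayed short of it.

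**Figure D4:**
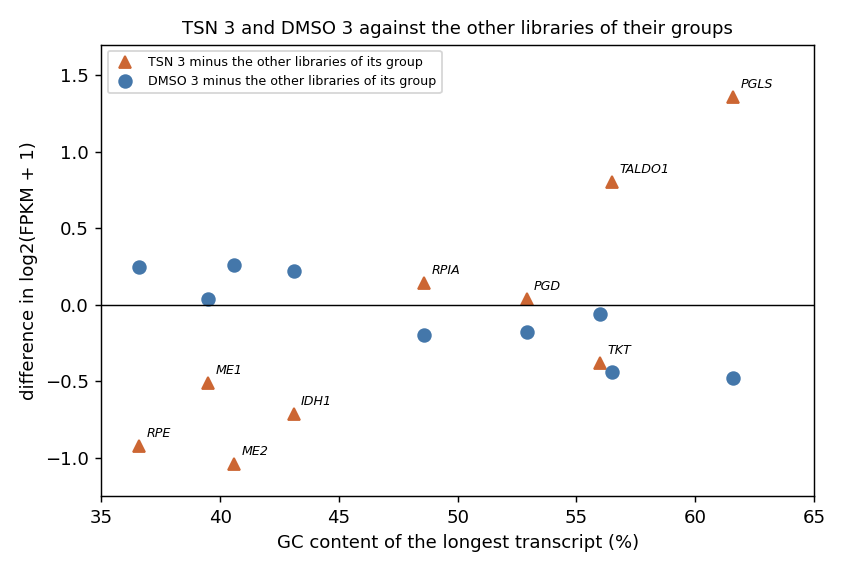
Difference in log2(FPKM + 1) of TSN 3 (orange triangles) and DMSO 3 (blue circles) from the mean of the other libraries of the same group (vertical axis), against the GC content of the longest GENCODE transcript (horizontal axis, %), for the 9 genes. In TSN 3 the genes run from -1.04 (ME2) to 1.36 (PGLS), and in DMSO 3 from 0.26 to -0.48 for the same genes.

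A list of 22 other genes of the pathway, of ribose phosphate use and of NADP supply gave calls in both directions. In this list, 21 were found and 17 passed the filter. Of these 17, 2 rose and 2 fell, near the background of 7.71% higher and 7.2% lower over all genes tested. The median log2 fold change of the list was 0.04. With 1 library left out, 0 to 3 rose and 0 to 2 fell by the same limma test, with no call in either direction without DMSO 1, DMSO 2 or TSN 1. IDH2, the mitochondrial NADP-dependent isocitrate dehydrogenase, rose from 79.7, 82.8 and 66.8 FPKM in DMSO 1, 2 and 3 to 164, 148 and 185 FPKM in TSN 1, 2 and 3. It changed by 1.10 ± 0.15 SE on the log2 scale (limma adjusted p = 0.00749, 0.00618 to 0.0536 with 1 library left out, above 0.05 without DMSO 1, DMSO 2 or TSN 1). The groups were separated in IDH2.

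NADK2, the mitochondrial NAD kinase that makes NADP, fell from 20.47 ± 1.05 to 10.74 ± 1.33 FPKM (SD, n = 3). Its log2 fold change was -0.88 ± 0.14 SE (limma adjusted p = 0.0126, up to 0.0832 with 1 library left out, above 0.05 without DMSO 1, DMSO 2, DMSO 3 or TSN 1). MTHFD2L, a mitochondrial enzyme of folate metabolism, fell from 5.181 ± 0.524 to 2.795 ± 0.218 FPKM (-0.70 ± 0.14 SE, limma adjusted p = 0.0216). Its limma adjusted p was 0.0753 to 0.118 without DMSO 1, DMSO 2, DMSO 3 or TSN 1, and 0.0919 with the length and GC trend removed. The most abundant genes of the list without a call were GLUD1, glutamate dehydrogenase, at 58.87 ± 2.22 and 60.0 ± 11.4 FPKM, and PRPS1, which activates ribose 5-phosphate for nucleotide synthesis, at 49.25 ± 1.28 and 54.87 ± 8.55 FPKM.

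On the side of NADPH use, 10 of 26 tested enzymes rose and 2 fell, from a list of 29. Over all genes tested, 7.71% were called higher and 7.2% lower. The median log2 fold change of these enzymes was 0.52, beside -0.10 for all genes. With 1 library left out, 5 to 12 of them rose, 5 without DMSO 1, DMSO 2 or TSN 1. Among those of lowest adjusted p that rose were the sterol reductase DHCR7 (2.96 ± 0.12 SE, limma adjusted p = 0.000283) and the sterol oxidase MSMO1 (2.77 ± 0.16 SE, limma adjusted p = 0.000679). The 2 that fell, ALDH18A1 from 102.5 ± 6.67 to 56.62 ± 14.7 FPKM and PYCR1 from 35.92 ± 4.15 to 21.56 ± 0.392 FPKM (SD, n = 3), make proline (limma adjusted p of 0.0424 and 0.0199). With 1 library left out, 0 to 3 of the list fell by the same limma test, and both of these lost their call without DMSO 1, DMSO 2 or TSN 1 (limma adjusted p of 0.0993 to 0.147), as did ALDH18A1 without DMSO 3 (0.147). Sterol genes in this list were already known to be high in these libraries, so the count is a description and not independent evidence.

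The profile of ME1, the gene of the 9 with the largest fold change, was set against all other tested genes by the mean absolute difference of centred log2(FPKM + 1) values over the 6 libraries. The closest named genes were P4HA1, a prolyl hydroxylase of collagen synthesis (0.0266), CYFIP2, a regulator of actin assembly (0.0511), and CSRNP1, a nuclear protein (0.0678), where the median gene was 0.743 away. P4HA1 stood at 30.1, 30.5 and 31.3 FPKM in DMSO 1, 2 and 3, and at 88.4, 86.9 and 62.1 FPKM in TSN 1, 2 and 3. Like ME1, it was about even in DMSO and lower in TSN 3 than in the other TSN libraries. This likeness follows from its choice as the closest profile over the same 6 libraries and is a description only.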

How the data were processed

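The authors deposited 1 table of FPKM values, with GRCh38 and DESeq2 1.26.0 named in the submitters' processing notes. Its header names no unit, so FPKM was read from the values: in single-exon genes, 95.0% to 95.7% of low values times exon length fell within 0.1 of whole multiples of 1 step per library. Aligner, counting tool, annotation, strand use and RNA selection are stated in no source used here. Because FPKM are not counts, the planned count tests were not run. Genes with at least 1 FPKM in 3 libraries (11440) were compared on log2(FPKM + 1) by limma 3.58.1 (R 4.3.3), which understates changes of low genes, with variance trend and robust moderation and Benjamini-Hochberg adjustment. The procedure was tested on simulated data. Gene places, overlaps, lengths and GC content came from GENCODE 29, and tables and figures from Python 3.11.15 with pandas 2.3.3, numpy 2.4.6 and matplotlib 3.10.9. No 2 libraries of a group agreed within counting error (chi-square per degree of freedom of 3.8 or more in single-exon genes), so none were merged. Since nothing but the label of biological replicates says that cultures were separate, p-values measure the spread between these libraries. The 9 genes, the lists, the marker lists and the rules were chosen with earlier results of these data known. All 9 were named. From the pathway list, the called genes of lowest adjusted p, at most 3 in each direction, and the 2 most abundant without a call were named, and from the NADPH-using list at most 3 each way. Some genes of these lists enter the counts and are not reported here by name. For likeness, the 3 closest genes with an HGNC symbol were named. Alternatives covered pseudocounts of 0.1 and 0.01, the filter, scaling, moderation, libraries left out, a replicate block and, added after the data were seen, removal of the exon length and GC trend by splines of 5 degrees of freedom.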

Additional observations from a re-analysis of the deposited data

How the results depend on the processing

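The count of the 9 genes called higher was 2 and ran from 0 to 3 with 1 library left out (0 without DMSO 2, 1 without DMSO 1, DMSO 3 or TSN 1). At an unadjusted p under 0.05, 2 or 3 were higher in those limma fits, beside 2469 to 4563 of 11440 genes in either direction. The count called lower, 0, ran from 0 to 1 with 1 library left out, and was 1 without both DMSO 3 and TSN 3 and 1 with the length and GC trend removed, the gene being RPIA each time. Over all genes, 1706 calls became 777 without a filter, 1002 where genes had to average 5 FPKM, 259 to 2823 with 1 library left out, 3299 without both DMSO 3 and TSN 3, and 2949 with the length and GC trend removed. The causes were not tested. Under median log ratio scaling the median of all genes moved from -0.10 to 0.00. Directions turned only in genes without a call: TALDO1 was 0.05 with median log ratio scaling and -0.31 to 0.20 with 1 library left out, PGLS -0.01 to 0.80, TKT -0.18 to 0.02 and GLUD1 -0.09 to 0.17. Without both DMSO 3 and TSN 3, PGLS was -0.17 and ME2 0.05. Without a filter, more genes share the adjustment, and MTHFD2L (limma adjusted p = 0.0656), PYCR1 (0.0665) and ALDH18A1 (0.113) lost their calls, as did ALDH18A1 after quantile normalization (0.0514). PGD and ME1 kept their direction in all alternatives run. Replicate numbers did not pair the libraries: deviations from the group means correlated at -0.317 for number 1, -0.646 for number 2 and -0.835 for number 3, and no library correlated best with its own number. With the replicate block, 0 genes were called by limma, 0 of the 9 among them (2121 and 2 at an unadjusted p under 0.05), and PGD and ME1 kept 0.78 and 1.36. At ME2's lowest depth, 123 fragments per kb, counting error is small beside the spread of TSN libraries.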
